A study of Saccharomyces cerevisiae with 11 samples.

Results

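Replicate 1 and replicate 2 cultures of 3 budding yeast strains, WT, R11 and K11, were compared to find which transcripts differed between cultures of 1 genotype in the same way in all 3 strains. The comparison took 6 of the 11 arrays of the series, chosen by the replicate number in their titles: 3 arrays of replicate 1 and 3 arrays of replicate 2, paired by strain. In R11 an arginine and in K11 a lysine was inserted at position 11 of histone H2A, and WT expressed unchanged H2A. All 3 strains were MATa, hta1-1, hta2-1, ura3-52 and his3, so that the chromosomal H2A genes were gone and H2A came from a plasmid with the HIS3 marker (pR11, pK11 and, in WT, pFL142). Cells were harvested in log phase, at an optical density of 0.8 after dilution to 0.2, from YPD, a rich glucose medium, and their poly(A) RNA was hybridized. The 5 arrays not compared were WT replicate 3 and the replicates 1 and 2 of ΔS15 and of R11ΔS15, which lack serine 15 of H2A and, in R11ΔS15, also carry the insertion at position 11. For R11ΔS15 the genotype entry of the labels names a lysine at that position, whereas the title names an arginine. The design text calls the replicates biological, and no source used here says that cultures with the same replicate number shared a day. Culture, RNA preparation and hybridization therefore cannot be told apart in any value below.

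The forward primers that the study used to insert the codon are shown because they hold the designed difference between the R11 and K11 strains, which are treated alike here. Both lie in HTA1, a gene of chromosome IV that was mutated here in its plasmid copy, and the inserted codon is in capitals.
R11_f: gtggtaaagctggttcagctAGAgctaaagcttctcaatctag
K11_f: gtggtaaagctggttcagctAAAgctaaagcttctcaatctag
The 2 primers of 43 bases differ at 1 base.

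Transcript levels in yeast follow the growth state of the culture. While glucose is plentiful, cells ferment and make ribosomes, whose assembly factors and RNA polymerases are transcribed in step with growth, and as glucose falls, genes for respiration, reserve carbohydrates and stress resistance are induced. Other regulons follow single nutrients, among them the methionine genes under Met4, the leucine and valine genes under Leu3 and Gcn4, and the phosphate genes under Pho4.

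Values were MAS5 signals on a linear scale, with a trimmed mean of 500.2 to 500.3 on every array. Of 5498 probe sets with an S. cerevisiae gene, 1 for each of 5415 genes lay above the background, a signal of 5.10 that was the 95th percentile of the S. pombe probe sets. HTA1 was checked first. Its signals were 7643, 7562 and 7335 in replicate 1 of WT, R11 and K11, against 7548, 7046 and 6858 in replicate 2. These levels overlap, and the probe set cannot show the inserted codon. The markers of MATa cells were bright in both replicates, with summed signals over 5 genes of 13780 to 14630 in replicate 1 and 12410 to 14200 in replicate 2. The 4 MATalpha markers summed to 962 to 1083 in replicate 1 and 1013 to 1155 in replicate 2, and the 7 meiotic markers to 853 to 902 and 807 to 903. The ratio of 3′ to 5′ signal of TDH1, a measure of RNA integrity, was 1.49, 1.43 and 1.46 in replicate 1 of WT, R11 and K11, and 1.73, 1.60 and 1.56 in replicate 2. These ratios did not overlap, while those of ACT1 did, at 1.26 to 1.30 in replicate 1 and 1.26 to 1.35 in replicate 2.

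The replicates of all 3 strains differed at many genes and in the same direction. In the fit paired by strain, 2453 of 5415 genes (45.3%) passed limma's test at an adjusted p of 0.05, with 1198 (22.1%) higher and 1255 (23.2%) lower in replicate 1 than in replicate 2. Most differences were small: the median size among the called genes was 1.20-fold, 134 were higher and 123 lower by at least 0.5 on the log2 scale, and 16 were higher and 9 lower by at least 2-fold. The median standard error was 0.06. Of the 2453 called genes, 2447 had the same sign in the 3 strains. Over all tested genes, 3693 (68.2%) had 1 sign in the 3 strains, 1832 of them higher and 1861 lower in replicate 1. For 2845 genes (52.5%) the 3 arrays of replicate 1 did not overlap with the 3 arrays of replicate 2, with 1408 higher and 1437 lower in replicate 1. The p-values measure the spread between 3 pairs of arrays, and 2 residual degrees of freedom were left, so that variances were moderated across genes.

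The differences in the 3 strains were also related gene by gene. Across the 5415 genes, the difference between replicates 1 and 2 in R11 correlated with that in WT at r = 0.66, that in K11 with WT at 0.71, and that in K11 with R11 at 0.66, and at 0.76 to 0.79 over the 5188 genes with a mean signal of at least 50. These correlations are a description across genes, which share the arrays of a strain and are not replicates. The difference in ΔS15 correlated with that in WT at 0.11, and the differences in ΔS15 and R11ΔS15 with those in WT, R11 and K11 at -0.02 to 0.11. For the 1747 S. pombe probe sets, which have no transcript in these cells, the correlations among WT, R11 and K11 were 0.00 to 0.05. Their median log2 differences were -0.36 in WT, -0.08 in R11 and -0.28 in K11, so that this background was lower in replicate 1 of each strain. The part of this shift in the differences of dim genes was not tested. Of the variation within strains, summed over genes, 78.3% lay in the term common to the 3 strains, where differences unrelated between strains would put 33.3%, and the S. pombe probe sets put 35.4%. The arrays were paired by number because these same arrays deviated together, which favours a share above 33.3%. The share and the calls above are therefore a description and no independent evidence for the pairing. For 36.9% of genes the common term held over 90% of the variation within strains. A difference of 2-fold or more was seen in all 3 strains for 13 genes with a median signal of 673, in 2 strains for 19 genes with a median of 35.8 and in 1 strain for 65 genes with a median of 24.4.

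**Figure D1:**
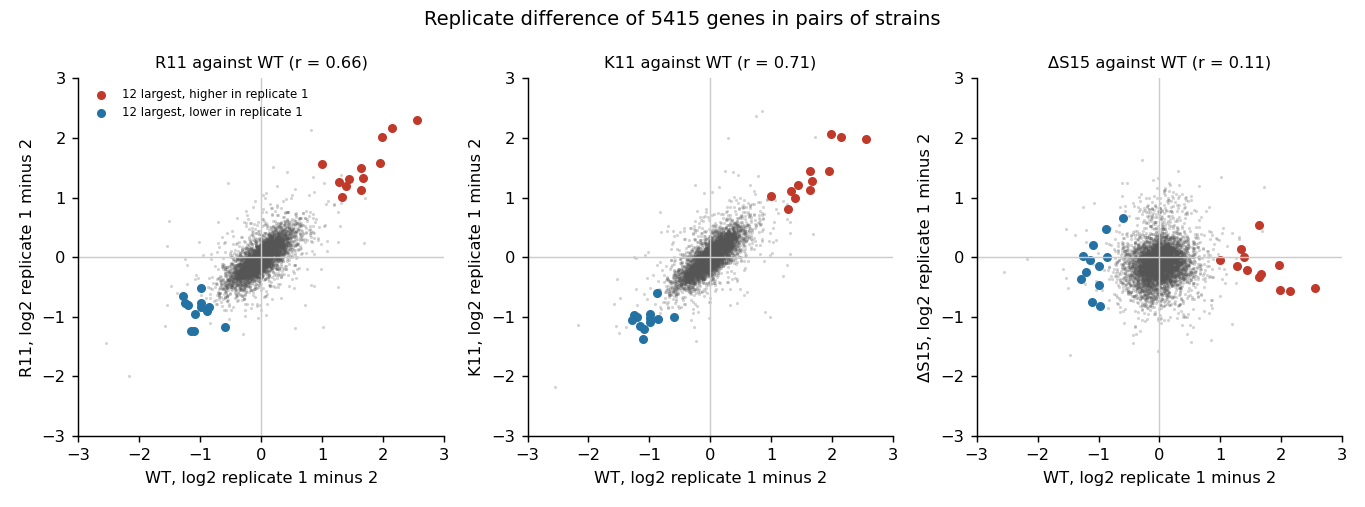
Each point is 1 of 5415 genes, placed by its log2 signal in replicate 1 minus replicate 2 in WT (x axis) and in R11, K11 or ΔS15 (y axis), with the 12 largest differences in each direction coloured. Genes lie along the diagonal for R11 (r = 0.66) and K11 (r = 0.71) and form a round cloud for ΔS15 (r = 0.11); 5 genes fall outside the axes in at least 1 panel.

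The 12 genes furthest above replicate 2 differed by 1.12 to 2.28 on the log2 scale. HSP30, a stress-induced membrane protein that dampens the proton pump Pma1, had signals of 3216, 3280 and 3330 in replicate 1 of WT, R11 and K11, against 546, 666 and 839 in replicate 2. Replicate 1 was nearly level across the strains and far above every replicate 2 array, with a log2 difference of 2.28 (standard error 0.09, adjusted p = 1.88e-05 by limma). RGI1, which is induced in respiratory growth, had 1305, 1245 and 1468 in replicate 1, against 330, 309 and 349 in replicate 2. EGO4 had 1079, 1064 and 1133 in replicate 1, against 245, 238 and 281 in replicate 2. Both were higher in replicate 1 of each strain, in the mean by 2.02 and 2.10 on the log2 scale, and their adjusted p of 1.21e-06 was the smallest of all genes. STF2, whose protein binds the ATP synthase and its inhibitor, had 1721, 1689 and 1781 in replicate 1, against 635, 679 and 766 in replicate 2, with a log2 difference of 1.32 (standard error 0.05).

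SPI1, an anchored wall protein of stationary cells, had 1858, 1830 and 1995 in replicate 1, against 586, 729 and 822 in replicate 2. PIR3, another wall protein, had 1591, 1535 and 1651 in replicate 1, against 512, 706 and 753 in replicate 2. The groups were well apart for both, with log2 differences of 1.43 and 1.30. BAG7, a GTPase-activating protein for Rho1, had 315, 318 and 280 in replicate 1, against 101, 113 and 103 in replicate 2. YPK2, a protein kinase downstream of TORC2, had 166, 177 and 166 in replicate 1, against 68.3, 74.2 and 94.3 in replicate 2. These 2 genes were higher in replicate 1 by 1.53 and 1.12 on the log2 scale. PHM8, a phosphatase gene of the phosphate regulon, had 848, 884 and 854 in replicate 1, against 323, 387 and 430 in replicate 2. The regulon as a list had 2 of 24 genes higher and 9 lower in replicate 1, with a median of -0.13 (-0.08 without WT). With the trend of signal on gene length removed, as described below, 4 were higher and 6 lower (median -0.05). Over all tested genes 22.1% were higher and 23.2% lower before that removal, and 12.7% and 20.1% after it. TDA6, FMP48 (a predicted protein kinase) and SRL3 completed the 12 largest, with log2 differences of 1.66, 1.20 and 1.15. In 10 of these 12 genes the difference was larger in WT than in K11.

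The 12 genes furthest below replicate 2 differed by -0.80 to -1.24 on the log2 scale. PMA2, a minor isoform of the plasma membrane proton pump, had 96.08, 95.04 and 94.75 in replicate 1 of WT, R11 and K11, against 206, 225 and 246 in replicate 2. Its log2 difference was -1.24 (standard error 0.08, adjusted p = 0.000112 by limma). MUP1, the high-affinity methionine permease, had 329, 329 and 373 in replicate 1, against 729, 774 and 829 in replicate 2. MET13, a methylenetetrahydrofolate reductase that supplies the methyl group of methionine, had 123, 140 and 121 in replicate 1, against 262, 270 and 281 in replicate 2. MMP1, the permease for S-methylmethionine, had 198, 231 and 229 in replicate 1, against 456, 405 and 459 in replicate 2. For these 3 genes of methionine uptake and synthesis every array of replicate 1 lay below every array of replicate 2, with log2 differences of -1.18, -1.08 and -1.0.

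HAC1, the transcription factor of the unfolded protein response, had 1495, 1918 and 1745 in replicate 1, against 3572, 3281 and 3430 in replicate 2. Its log2 difference was -1.0 (standard error 0.08). CDC6, which loads the replicative helicase at origins, had 372, 424 and 374 in replicate 1, against 673, 760 and 772 in replicate 2. HCM1, a forkhead factor of S phase genes, had 319, 339 and 314 in replicate 1, against 635, 578 and 609 in replicate 2. These cell cycle regulators were lower in replicate 1 by 0.92 and 0.91 on the log2 scale. DHH1, a helicase that activates mRNA decapping, had 268, 293 and 269 in replicate 1, against 533, 525 and 570 in replicate 2. DED1, a helicase of translation initiation, had 539, 713 and 523 in replicate 1, against 1066, 1027 and 1063 in replicate 2. FLO11, the flocculin of cell adhesion, had 1084, 1009 and 952 in replicate 1, against 1644, 2267 and 1920 in replicate 2. AGP2, a regulator of carnitine and polyamine uptake, had 44.1, 51.4 and 49.5 in replicate 1, against 108, 80.6 and 102 in replicate 2, and with 50 added to every signal its difference was -0.58 in place of -1.0. RIM4, an RNA-binding protein of meiosis, had 138, 140 and 150 against 255, 264 and 228. For none of these genes did the 2 groups of arrays overlap, as was so for 52.5% of all tested genes. In all 24 genes the choice for large differences favours this. The 24 genes were those with the largest mean differences among 2384 that passed the test with a mean signal of at least 50, 1 sign in the 3 strains and a probe set of their own.

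**Figure D2:**
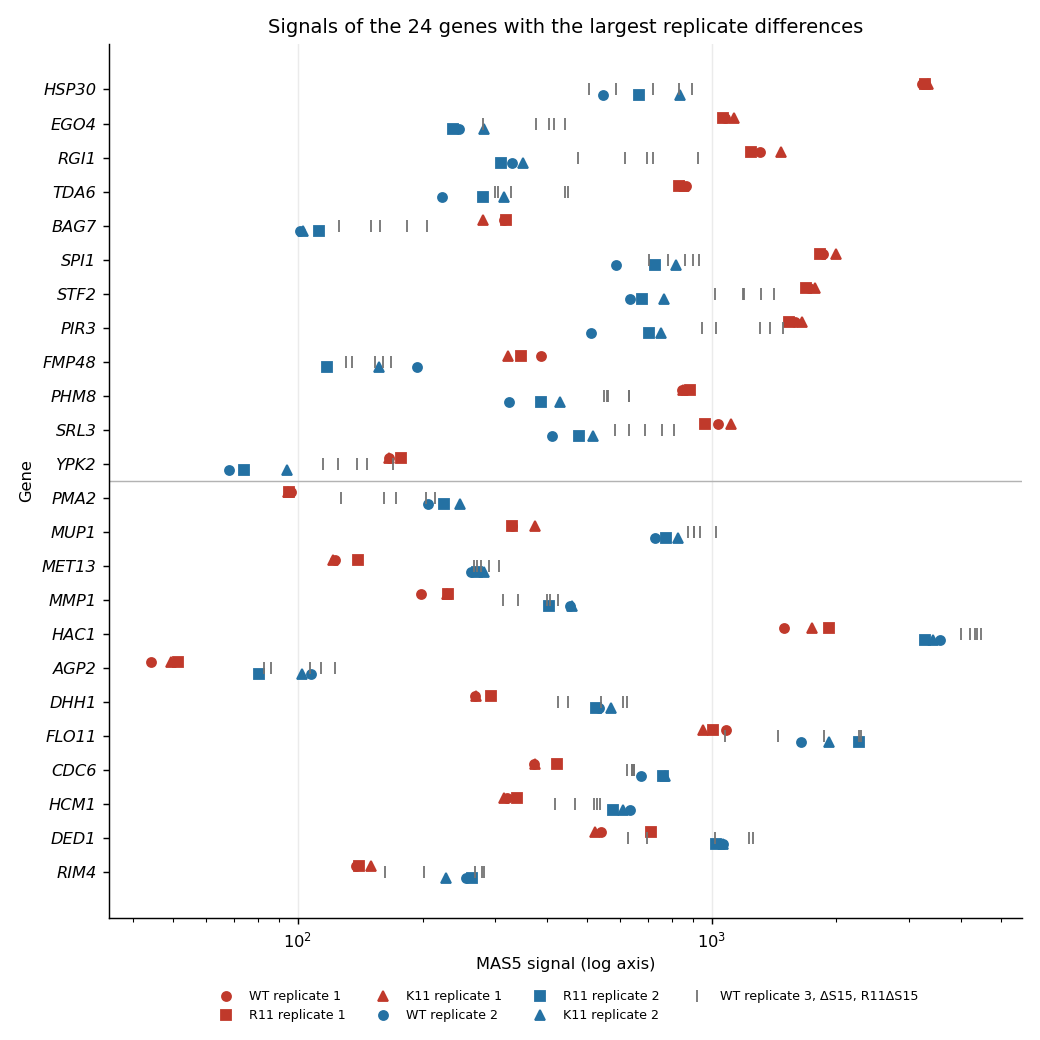
MAS5 signals (log axis) of the 12 genes most above and the 12 most below replicate 2, with replicate 1 in red just above replicate 2 in blue, a symbol for each strain, and grey ticks for the 5 remaining arrays of the series. Red and blue symbols do not overlap for any of these genes, which were chosen for large differences, as in HSP30 with 3216 to 3330 in replicate 1 and 546 to 839 in replicate 2.

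The difference also followed the length of the gene, in all 3 strains alike. In the shortest of 5 length classes of 1083 genes (51 to 666 bases from start to stop), the median log2 difference was 0.16 in WT, 0.15 in R11 and 0.15 in K11, and 505 of 1083 genes (46.6%) were higher in replicate 1, against 43 (3.97%) lower. In the longest class (2115 to 14733 bases) the medians were -0.13, -0.13 and -0.11, with 53 genes (4.89%) higher and 419 (38.7%) lower in replicate 1. Spearman's rho between difference and length was -0.45 in WT, -0.49 in R11 and -0.43 in K11, and -0.26 in ΔS15 and -0.28 in R11ΔS15, as a description across genes. The TDH1 ratios given above differed in the same pairs of arrays, and their part in the length trend was not tested. When a smooth trend of signal on length was subtracted from every array, a choice made after the data had been seen, 1776 genes (32.8%) were called, 690 (12.7%) higher and 1086 (20.1%) lower in replicate 1. Of these, 1141 were called with the same sign without the correction, which is 64.2% of the corrected calls and 46.5% of the uncorrected ones. All 24 genes described above passed both tests with the same sign, HSP30 at 2.19, RGI1 at 1.81, MUP1 at -1.04 and HAC1 at -1.10 after the correction. The counts and medians of the gene lists below are therefore given before and after the trend was removed. The counts are to be read against the shares over all genes, 22.1% higher and 23.2% lower before the correction and 12.7% and 20.1% after it. No chromosome stood apart, with medians of -0.03 to 0.04 over the 16 chromosomes.

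**Figure D3:**
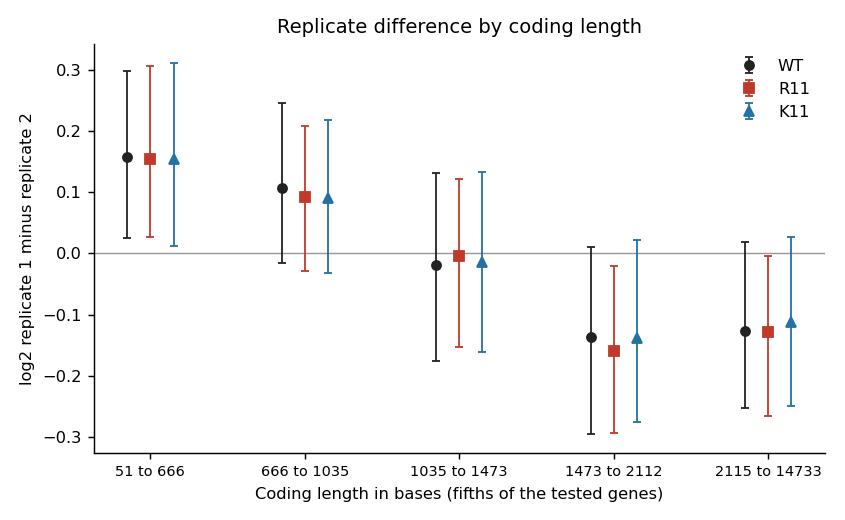
Median log2 difference of replicate 1 minus replicate 2 (points) with the quartiles (bars) for 5 classes of the tested genes by coding length in bases, in WT, R11 and K11. The medians are 0.15 to 0.16 in the shortest class, and lie between -0.13 and -0.11 in the longest, at nearly the same values in each strain.

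Genes of ribosome assembly were among the groups higher in replicate 1. Of 75 assembly factors of the large ribosomal subunit, 37 were higher and 8 lower in replicate 1, with a median log2 difference of 0.14 against -0.00 over all tested genes. CGR1, which processes the precursor of the large subunit RNA, had 980, 854 and 976 in replicate 1 of WT, R11 and K11, against 636, 595 and 577 in replicate 2. RRS1, which brings 5S RNA into the subunit, had 1781, 1675 and 1701 in replicate 1, against 1243, 1126 and 1125 in replicate 2. TMA16 and RRP14 were higher by 0.49 and 0.48 on the log2 scale. After removal of the length trend the median of the list was 0.18, with 39 higher and 1 lower. Before that removal the median varied between strains, at 0.04 in WT, 0.18 in R11 and 0.21 in K11.

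The small subunit processome, which folds and cuts the precursor of the small subunit RNA, had 20 of 58 genes higher and 10 lower in replicate 1, with a median of 0.10. Between strains this median varied, at 0.02 in WT, 0.11 in R11 and 0.13 in K11. With the trend removed the median of the list was 0.09, with 21 higher and 3 lower. ESF1 had the largest difference, 348, 385 and 353 in replicate 1, against 266, 228 and 175 in replicate 2, and FCF2, RRP36 and UTP23 followed with log2 differences of 0.55, 0.43 and 0.33. ESF1 varied most in replicate 2, where K11 was lowest, and replicate 1 lay above every replicate 2 array.

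RNA polymerases I and III, which transcribe ribosomal and transfer RNA, had 15 of 27 subunits higher and 4 lower in replicate 1, with a median of 0.21 before and 0.08 after removal of the trend. RPC25, a subunit of polymerase III, had 1387, 1345 and 1298 in replicate 1, against 860, 801 and 703 in replicate 2 (log2 difference 0.77). RPC31, RPC34 and RPC10 were higher by 0.44, 0.42 and 0.37, and RPC10 missed the threshold with the trend removed (0.08). Of 11 subunits of polymerase II, 8 were higher and 1 lower, and the median of 0.21 was 0.01 without the trend, with 2 higher and 2 lower. Its largest subunit, RPO21, with a gene of 5202 bases, was higher by 0.37, and by 0.49 with the trend removed. RPB10, 213 bases long, was higher by 0.28, and had -0.01 (adjusted p = 0.788 by limma) with the trend removed.

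The ribosomal proteins themselves differed little before the length trend was removed. Of 75 genes of the large subunit 14 were higher and 8 lower, with a median of 0.02, and of 52 of the small subunit 8 were higher and 7 lower, with a median of -0.01. RPL9B and RPL4B were higher in replicate 1 by 0.35 and 0.26, and RPS14B and RPS21A lower by 0.17 and 0.12, calls that RPL9B lost with the trend removed and RPS14B and RPS21A without WT. These genes are short, and with the length trend removed the medians were -0.13 and -0.17. In replicate 1, 43 of 75 and 34 of 52 were then lower, and 2 and 1 higher. The direction of the large subunit list and the size of the small subunit median therefore depend on that correction. Mitochondrial ribosomal proteins also turned, with 16 of 68 higher and 4 lower before the correction (median 0.06) and 0 higher and 21 lower after it (median -0.10). The cytosolic tRNA synthetases, whose genes are long, had 12 of 21 lower and 1 higher (median -0.15), and 4 lower and 2 higher with the trend removed (median -0.01).

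Most genes for branched-chain amino acids were lower in replicate 1. Of 13 genes of leucine, isoleucine and valine synthesis, 9 were lower and 1 higher, with the lowest median of the 57 lists, -0.28 (-0.25 with the trend removed, with 8 lower and 1 higher). ILV2, which encodes the first enzyme of the valine branch, had 1472, 1439 and 1555 in replicate 1, against 2319, 1978 and 2299 in replicate 2. LEU4, which begins leucine synthesis, had 2010, 2090 and 2055 in replicate 1, against 3066, 2839 and 3062 in replicate 2. ILV3, a dehydratase of both branches, and ILV1, the threonine deaminase that feeds isoleucine, were lower by 0.54 and 0.52 on the log2 scale. For all 4 genes, named for their large differences, the arrays of the replicates did not overlap, as was so for 52.5% of all tested genes.

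Sulfate assimilation and methionine genes had 20 of 33 members lower and 3 higher in replicate 1, with a median of -0.20, and 16 lower and 1 higher with the trend removed (median -0.16). Beside MUP1, MET13 and MMP1, MET6, the methionine synthase, had 2433, 2324 and 2602 in replicate 1, against 4163, 3853 and 4407 in replicate 2, a log2 difference of -0.76 (standard error 0.03). MET17, which makes homocysteine from sulfide, had 5272, 5135 and 5214 in replicate 1, against 6325, 6124 and 6273 in replicate 2. The amino acid permeases had 15 of 23 lower and 1 higher (median -0.25), and 10 lower and 1 higher with the trend removed (median -0.11). SAM3, the permease for S-adenosylmethionine, had 107, 87.2 and 89.5 in replicate 1, against 143, 135 and 142 in replicate 2.

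More cell cycle genes were lower than higher in replicate 1. Of 42 genes expressed in G1 and S phase, 25 were lower and 1 higher, with a median of -0.23, and 17 were lower and 1 higher with the trend removed (median -0.14). Next to CDC6 and HCM1, MCD1, the cohesin subunit that is cleaved in anaphase, had 828, 761 and 794 in replicate 1, against 1273, 1095 and 1128 in replicate 2. WHI5, the repressor of the G1 transcription programme, was dim at 16.3, 11.0 and 15.9 in replicate 1, against 29.3, 19.0 and 23.0 in replicate 2, and lost its call when any 1 strain was left out. Of 32 genes of G2, M and early G1, 21 were lower and 0 higher (median -0.22), and 10 were lower and 0 higher with the trend removed (median -0.10). CLB2, the main mitotic cyclin, had 274, 322 and 371 in replicate 1, against 401, 433 and 460 in replicate 2. SUN4 and CLB3 were lower by 0.43 and 0.41. DSE1, a gene of daughter cells, had log2 differences of -1.04 in WT, -0.35 in R11 and -0.35 in K11, so that its mean of -0.58 was -0.35 without WT. The core histone genes, which peak in S phase, had 1 of 7 members called (median 0.07), against 45.3% of all tested genes. The called gene, HHT1, was higher in replicate 1, with 4108, 4436 and 4010 in replicate 1, against 3241, 3276 and 3151 in replicate 2. The histone genes are short, and with the trend removed 1 was higher and 4 were lower (median -0.16). HTA1 then had -0.16 (adjusted p = 0.00906 by limma), in place of 0.07. HTA2, which these strains lack, and HHF1 were read by probe sets shared with other transcripts.

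More heat shock chaperones were lower than higher in replicate 1. Of 26 heat shock chaperones, 16 were lower and 3 higher in replicate 1, with a median of -0.19, and 12 were lower and 3 higher with the trend removed (median -0.16). HSP82, the inducible Hsp90, had 2349, 2398 and 2694 in replicate 1, against 3531, 3824 and 3793 in replicate 2. STI1, which links Hsp90 to Hsp70, had 2808, 2711 and 2989 in replicate 1, against 4432, 4545 and 4631 in replicate 2. SSA3 and SSA4, the inducible Hsp70 genes, were lower by 0.79 and 0.57. Of 64 genes of the general stress response, 14 were higher and 21 lower in replicate 1 (13 and 24 with the trend removed), with medians of -0.09 both ways. The share higher, 21.9%, was close to the 22.1% over all genes, and the share lower was 32.8% against 23.2%. HSP30 at 2.28 and SPI1 at 1.43 stood at 1 end and SSA3, FMP45 at -0.74, ALD4 at -0.65 and GAD1 at -0.62 at the other. HSP12, a gene often used to report this response and named here after its values were seen, had 1723, 1860 and 1898 in replicate 1, against 2447, 2434 and 2615 in replicate 2, the opposite direction to HSP30.

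Genes of reserve carbohydrates and oxidant defence were mixed. Of 22 genes of trehalose and glycogen metabolism, 9 were lower and 4 higher, and 4 were lower and 4 higher with the trend removed (medians -0.11 and -0.01). UGP1, which makes the sugar donor UDP-glucose, had 2584, 2601 and 2693 in replicate 1, against 3649, 3433 and 3927 in replicate 2, and PIG1 and NTH2 were lower by 0.69 and 0.46. In the other direction this list reached 0.48. Of 30 genes of oxidative stress defence, 4 were lower and 5 higher (median -0.03), and 18 were lower and 2 higher with the trend removed (median -0.18). YAP1, the transcription factor of this response, was lower by 0.58, and GLR1 and GSH2, both of glutathione metabolism, by 0.51 and 0.48. The list reached 0.86 in the other direction, so that these members do not stand for the whole list. Of 39 wall protein and wall integrity genes, 18 were lower and 10 higher (median -0.10), and 21 were lower and 8 higher with the trend removed (median -0.11), with FLO11 and FLO10 at -0.93 and -0.70 and PIR3 and SPI1 at the other end.

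Several branches of carbon metabolism had more genes lower than higher in replicate 1. Of 23 genes for the use of ethanol and acetate, 11 were lower and 1 higher (median -0.25), and 8 were lower and 4 higher with the trend removed (median -0.26). With 50 added to every signal, which shrinks the differences of dim genes, the median was -0.14. ALD4, the mitochondrial aldehyde dehydrogenase, had 1068, 1026 and 1107 in replicate 1, against 1771, 1598 and 1654 in replicate 2. MLS1, the malate synthase of the glyoxylate cycle, was dimmer, with 69.6, 66.8 and 87.2 in replicate 1, against 98.4, 123 and 124 in replicate 2, and ADR1 and SIP4, transcription factors of this pathway, were lower by 0.62 and 0.55. Of 26 genes of the tricarboxylic acid cycle, 14 were lower and 1 higher (median -0.16), and 13 were lower and 0 higher with the trend removed (median -0.15). SDH1 and LSC1 had log2 differences of -0.39 and -0.35. Of 21 hexose transporter and glucose sensing genes, 7 were lower and 0 higher (median -0.18), and 4 were lower and 0 higher with the trend removed (median -0.04). The share lower after the correction was near the 20.1% over all genes. Of the 21 genes, 10 had 1 sign in the 3 strains, against 68.2% of all tested genes. With 50 added to every signal the median of this list was -0.06. HXT2, a high-affinity glucose transporter, had 1399, 1411 and 1326 in replicate 1, against 2490, 2268 and 2379 in replicate 2, and MIG2, a glucose repressor, had 1401, 1431 and 1396 against 2141, 1967 and 2014. HXT7 was lower by 0.43, from a probe set shared with other transcripts.

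The respiratory chain and ATP synthase had 21 of 44 genes higher and 4 lower in replicate 1, with a median of 0.12. Its genes are short, and with the trend removed 4 were higher and 16 lower (median -0.06), so that the direction of the list depends on that correction. CYC7, the isoform of cytochrome c made at low oxygen, had 493, 419 and 383 in replicate 1, against 307, 251 and 288 in replicate 2, and remained higher with the trend removed (0.36), as did STF2 (1.04). STF1 and QCR8 were higher by 0.39 and 0.36 (QCR8 by 0.24 without R11) and missed the threshold with the trend removed, at 0.11 and 0.09 (adjusted p = 0.0765 and 0.328 by limma).

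More drug and metal transport genes were also lower than higher in replicate 1. Of 25 genes of multidrug and toxin resistance, 15 were lower and 4 higher (median -0.22), and 11 were lower and 5 higher with the trend removed (median -0.17). AQR1, an exporter of organic acids and amino acids, had 990, 1007 and 986 in replicate 1, against 1852, 1625 and 1706 in replicate 2, and ATR1 and PDR10 were lower by 0.53 and 0.44. The iron regulon had 17 of 36 genes lower and 5 higher (median -0.18), and 11 lower and 1 higher with the trend removed (median -0.12). FET3, the multicopper oxidase of iron uptake, had 472, 475 and 457 in replicate 1, against 620, 740 and 671 in replicate 2. FRE7 and FIT1 had -0.72 and -0.60, and FRE7 lost its call without R11 and with the trend removed. Of the 36 proteasome genes, 9 were lower and 11 higher (median -0.01), and 7 were lower and 1 higher with the trend removed (median -0.04). HIS3, the plasmid marker, had 10390, 7675 and 8315 in replicate 1, against 9621, 7351 and 9297 in replicate 2, so that its levels followed the strain more than the replicate and overlapped. ADE2, LYS2, LEU2 and MET17 were lower in replicate 1, by 0.34, 0.24, 0.20 and 0.26 (LYS2 missed the threshold with the trend removed, and LEU2 without R11 or K11), and 4 of the 6 auxotrophic marker genes tested were called. The 30 other lists had medians of -0.18 to 0.04, and 28 of these medians lay below 0. Over all 57 lists 47 medians lay below 0 and 10 above, while the median over all tested genes was -0.002. A median below 0 is therefore common among the lists and does not set the described ones apart. In bulk RNA, a share of cells in another state and a change in every cell cannot be told apart.

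**Figure D4:**
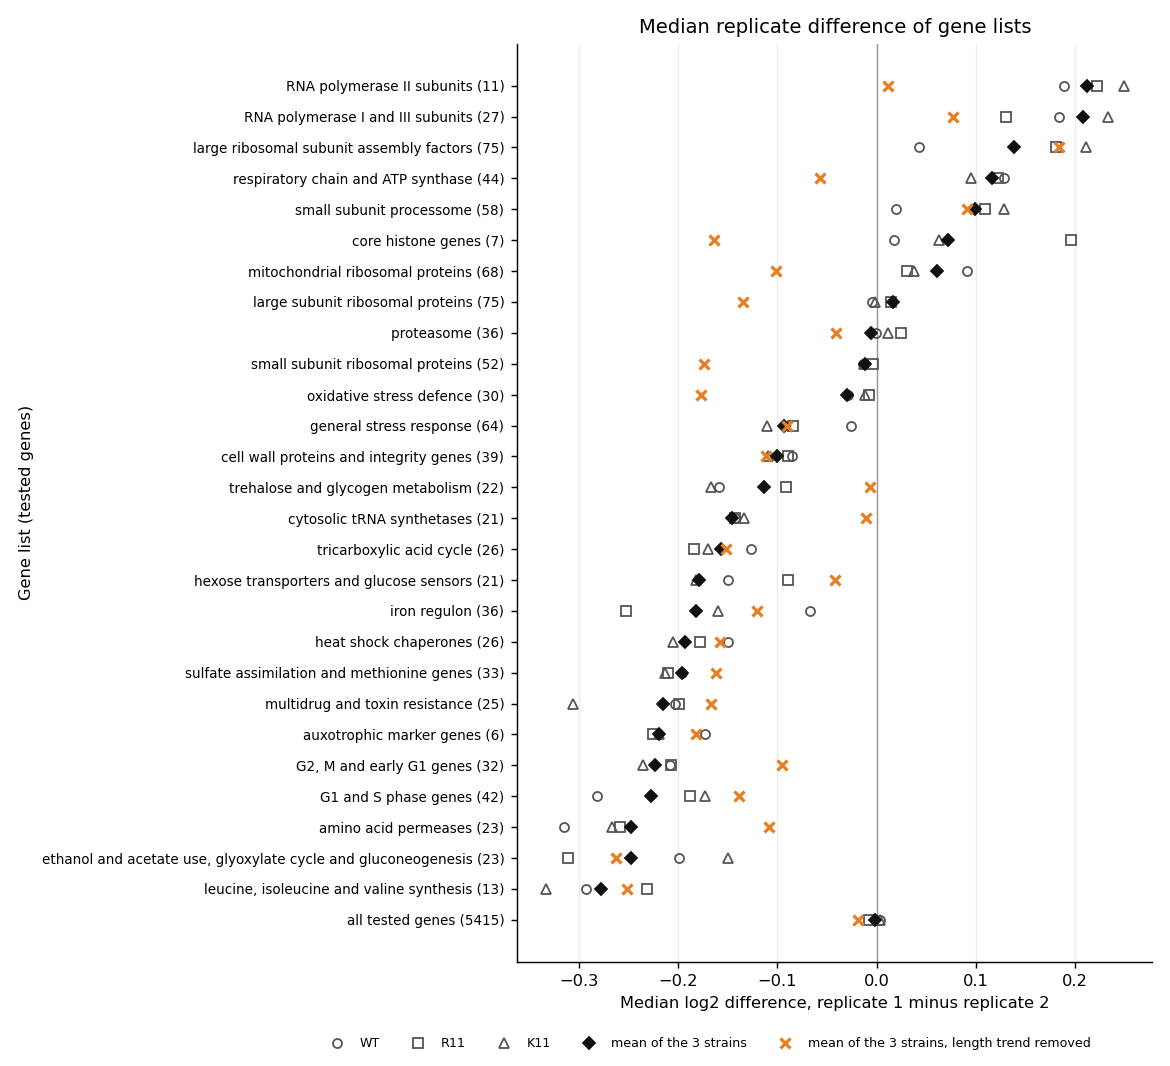
Median log2 difference of replicate 1 minus replicate 2 of 27 gene lists and of all 5415 tested genes, in each strain (open symbols), for the mean of the 3 strains (black diamonds) and for that mean with the length trend removed (orange crosses). The lists run from RNA polymerase II at 0.21 to leucine, isoleucine and valine synthesis at -0.28, and the respiratory chain, the ribosomal proteins of the large subunit and of mitochondria, and the core histones cross 0 when the trend is removed.

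ΔS15 and R11ΔS15 gave no calls between their replicates. Across 5415 genes, chromosome IX included, their replicate differences had a Pearson r of -0.01 and a Spearman's rho of 0.19. In a fit of 10 arrays, 0 of 5415 genes (0%) passed limma's test between replicates 1 and 2 of these 2 strains, with 1390 at an unadjusted p under 0.05. The median difference of 188 genes of chromosome IX was 0.76 in ΔS15 and -0.77 in R11ΔS15, and without this chromosome 297 genes were called. With an array of ΔS15 left out 986 genes were called, and with one of R11ΔS15 left out 1159 or 1172, each count resting on the pair of the other strain. The difference of the replicate contrast between the 2 sets of strains was itself tested, and 427 genes (7.89%) passed, 257 with a higher value in WT, R11 and K11 and 170 with a lower one. None passed when an array of WT, R11 or K11 was left out, and 1380 to 1418 passed when one of ΔS15 or R11ΔS15 was. RGI1 and MUP1 were chosen for their large difference in WT, R11 and K11, which favours a large value here. For RGI1, whose log2 difference was 2.02 in WT, R11 and K11, the contrast was -0.39 in ΔS15 and R11ΔS15, and the difference between the sets was 2.42 (standard error 0.12, adjusted p = 0.00342 by limma). For MUP1 the values were -1.18 and 0.06, with a difference of -1.24 (standard error 0.11, adjusted p = 0.0167 by limma). DED1 was lower in replicate 1 in both sets, at -0.84 in WT, R11 and K11 and -0.76 in ΔS15 and R11ΔS15. The second value missed the threshold (adjusted p = 0.057 by limma).

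The 5 remaining arrays lay closer to replicate 2 than to replicate 1 at most of the called genes. This held for 62.2% of the 2453 genes on WT replicate 3, for 57.3% and 66.9% on ΔS15 replicates 1 and 2, and for 56.7% and 62.3% on R11ΔS15 replicates 1 and 2. Of the 12 genes most below replicate 2, WT replicate 3 was nearer to replicate 2 for 11, ΔS15 replicates 1 and 2 for 10 and 12, and R11ΔS15 replicates 1 and 2 for 9 and 12. Of the 12 most above it, the counts were 7, 10 and 8, and 7 and 7 in the same order of arrays. MUP1 had 936 on WT replicate 3, above every array of replicate 1 and replicate 2, and HAC1 had 4001. For genes of the other direction WT replicate 3 was often in between, as for RGI1 with 924 and STF2 with 1318, while HSP30 had 836, within the range of replicate 2. These 5 arrays have weaker hybridization controls than the 6 compared, with mean log2 signals of 8.58 to 8.65 against 8.68 to 8.97. Their TDH1 ratios of 3′ to 5′ signal were also lower, at 1.14 to 1.42 against 1.43 to 1.73. For ACT1 the ratios were 1.04 to 1.11 against 1.26 to 1.35. The part of these array differences in the distances above was not tested, and the levels are set beside the others as a description.

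The replicate number moved the spread against which strains are compared. Without a term for it, the median residual standard deviation over genes was 0.13 on the log2 scale, and with it 0.06. For R11 against WT, 0 genes (0%) passed limma's test without the term, with 35 at an unadjusted p under 0.05, and 0 passed with the replicate number as a block, with 439 under 0.05. For K11 against WT the counts were 0 (0%) with 61, and with the block 0 with 631, and the smallest adjusted p with the block was 0.129 for K11 and 0.181 for R11.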

How the data were processed

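RNA of log phase cultures was measured on 11 one-colour Affymetrix Yeast Genome 2.0 arrays. The authors deposited linear signal intensities computed with MAS5 and scaled to a common trimmed mean by the core facility that labelled and hybridized the RNA; the version of MAS5 is not given in the sources used here. Probe sets were assigned to genes with the array's annotation and the R64 gene table of RefSeq, and the gene lengths hold no UTRs (97.0% are multiples of 3) but include introns. Where several probe sets read 1 gene, that of the highest mean log2 signal was kept, if above the background percentile. No further normalization was applied. Precision is limited by how many arrays there are.

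The log2 values were modelled in R 4.3.3 (limma 3.58.1) with a term for each strain and one for the replicate (6 arrays), variances moderated with a trend, and Benjamini-Hochberg adjustment over 5415 genes at 0.05. ΔS15 and R11ΔS15 were added in a fit of 10 arrays with a replicate term for each set of strains (3 residual degrees of freedom). The fit was tested on simulated data. Same-numbered arrays of WT, R11 and K11 deviated together, at correlations of 0.66 to 0.71 between pairs of strains, so the numbers were taken to pair the arrays; the labels give no reason for the pairing. Alternatives were an offset of 50, quantile normalization, centring, other filters and moderation, other sets of arrays and, added after the data had been seen, a lowess on log2 length (span 0.3) subtracted from each array.

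The comparison, the 57 gene lists and the rule for named genes were chosen with earlier results of these data known, so that no list is independent evidence. Genes named are the 12 largest differences in each direction that passed the test with a mean signal of at least 50, 1 sign in the 3 strains and an unshared probe set; of 27 lists, up to 4 members with the largest differences in the direction of the median; and histone, mating type and marker genes. Lists were described by counts and medians, without a set test. No probe set of HHF2 or TRP1 was tested. Plots and summaries used Python 3.11.15 and matplotlib 3.10.9.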

Additional observations from a re-analysis of the deposited data

Results flagged for a closer look

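For 20 of the 24 genes with the largest differences between replicates 1 and 2 of WT, R11 and K11, the contrast differed from that in ΔS15 and R11ΔS15 by limma's test of the difference itself, at adjusted p-values of 0.00342 to 0.0427. The genes were chosen for a large contrast in WT, R11 and K11, which enters this difference, so the share that passed is set by the choice and is no result about them; over all genes 427 of 5415 (7.89%) passed. The difference, WT, R11 and K11 minus ΔS15 and R11ΔS15 on the log2 scale, was largest for EGO4 at 2.44, RGI1 at 2.42 and HSP30 at 2.24. STF2 had 1.55, BAG7 1.55, YPK2 1.47, TDA6 1.45 and SPI1 1.44, and PHM8 had 1.19, FMP48 1.16, PIR3 0.99 and SRL3 0.90. Among genes lower in replicate 1, MUP1 had -1.24, MET13 -1.14, MMP1 -1.10, RIM4 -1.06 and HAC1 -1.05, and CDC6 had -0.89, HCM1 -0.65 and DHH1 -0.57. The mean contrast of ΔS15 and R11ΔS15 for these genes was between -0.41 (DHH1) and 0.31 (PIR3), but it joins strains that could differ in sign, as for HSP30 with -0.52 in ΔS15 and 0.61 in R11ΔS15 and MMP1 with -0.26 and 0.44. The exceptions were PMA2, AGP2, FLO11 and DED1, whose differences of -0.91, -0.55, -0.71 and -0.09 missed the threshold. FLO11 lies on chromosome IX, whose median contrasts were 0.76 in ΔS15 and -0.77 in R11ΔS15, and itself had 0.66 and -1.10. The part of that shift in its result was not tested. No gene kept a call for the difference between the sets when an array of WT, R11 or K11 was left out.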

How the results depend on the processing

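Of 2453 genes called between replicates 1 and 2 of WT, R11 and K11, the count stayed within 1.5 times under other normalizations, filters and moderation. It was 1709 to 2086 with an array of 1 strain left out, which takes that strain out of the contrast, 90 with all 5 strains in 1 replicate term, 1261 with the spread from 10 arrays and 1776 with the length trend removed. For ΔS15 and R11ΔS15 it was 297 without chromosome IX, 2 with the length trend removed and 0 to 1172 with an array left out. The difference between the sets of strains gave 427 calls, 644 without chromosome IX, 176 with the length trend removed, and 0 to 1418 with an array left out, 0 for each array of WT, R11 and K11. R11 and K11 against WT gave 0 calls under every alternative run, the replicate block included (0). The share of variation common to the strains, 78.3%, was 85.7% with 50 added to every signal, 85.0% at signals of at least 50, 74.4% with the length trend removed, 82.7% to 85.4% over 2 strains (where unrelated differences would give 50%) and 35.4% for S. pombe probe sets. With the length trend removed, the sign turned for HTA1 (-0.16), HTA2 (-0.18), HTB2 (-0.16), HHF1 (-0.14), HIS3 (-0.16), MFA1 (-0.047), MFA2 (-0.15) and RPB10 (-0.013), and without shared probe sets for RPS8A (0.0089). The 24 largest genes kept their call and sign with 50 added, quantile normalization, centring, an array left out, unshared probe sets and the length trend removed; the other settings were not run for single genes. With 50 added to every signal, the differences of the dim genes FMP45, FRE7, MLS1, SIP4 and WHI5 were -0.44, -0.34, -0.41, -0.36 and -0.20. The medians of 9 of 57 lists changed sign with the length trend removed. The cause of these shifts was not tested.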
